A study of Mus musculus with 25 samples.

Results

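The 51 genes described here encode the machinery that copies DNA and the factors that carry a cell from G1 into S phase. They were taken by name from a list of replication and G1/S genes, and all 51 were among the 22439 genes of the count matrices. By role they comprise 10 genes of origin licensing, 4 of helicase activation, 7 of the polymerases and primase, 12 of the sliding clamp, its loader and the single-strand binding complex RPA, 6 of nucleotide supply, 6 of chromatin assembly and DNA methylation, 5 of G1/S control and the replication checkpoint, and Stmn1. A list of 40 genes of G2 and mitosis was measured beside them.

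DNA replication is prepared in G1, when the origin recognition complex, Cdc6 and Cdt1 load the ring-shaped MCM helicase onto origins. Cyclin E with its kinase inactivates the retinoblastoma proteins, E2F transcription factors are released, and their target genes, many of them in the set described here, are transcribed as the cell enters S phase, before the mitotic genes that follow in G2. Microglia, the resident macrophages of the central nervous system, seldom divide in the healthy spinal cord and proliferate after it is injured, whereas blood monocytes enter the lesion from bone marrow and become macrophages there.

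The study measured single-cell RNA in myeloid cells sorted by FACS from spinal cord lesions of mice, in 25 libraries of the 10x Genomics 3' assay holding 30958 cells. Each library pooled 1 to 3 mice of 1 sex. All mice carried Cx3cr1CreERT2, an inducible Cre driven from the locus of a gene that microglia and many monocytes express. Mixed libraries (labelled YFP+) came from mice of the Cx3cr1CreERT2 strain and hold resident and infiltrating cells together. Resident libraries (RFP+/YFP+) and infiltrating libraries (RFP-/YFP+) came from Cx3cr1CreERT2:R26tdTomato mice, in which Cre activity switches on a red reporter. Controls had a laminectomy and no cord injury, and other mice were taken 1, 2, 3, 10 or 21 days after injury; no age is given. Of microglia, 2 control, 3 day 1, 3 day 2, 5 day 3, 3 day 10 and 1 day 21 libraries were used. Of macrophages, 4 day 1, 3 day 2, 2 day 3, 4 day 10 and 2 day 21 libraries were used, with none from controls. One day 3 library is called infiltrating in its title and RFP+/YFP+ in its sort label, and it was left out of tests and group values except where named; values of clusters, marker checks and counts over all cells include it.

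Cell types are the authors' deposited codes. Of the 9 microglial markers, 9 marked the type called microglia here at 20 CPM or more and at least 2-fold above the other types. Among the macrophages, 8 of 9 macrophage and 5 of 8 monocyte markers did so, among the dendritic-like cells 6 of 8, and among the neutrophil-like cells 7 of 7. The number of cells per library ranged from 155 to 3800 and the total from 486649 to 33204422 UMIs; 127 cell barcodes were found in more than 1 library. Libraries were sequenced in 7 pools by the deposited annotation, and the 3 microglial libraries of day 1 shared a pool only with a day 21 library, so day 1 and its pool cannot be told apart. Microglial markers summed to 25965 and 24693 CPM in the microglia of the controls and to 4035 to 8318 CPM on day 1.

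Promoters of the 2 gene lists are shown here because the timing of the lists is compared below. RefSeq windows of GRCm38.p6, from 250 bases before to 50 after the transcription start, were matched for 42 of the 51 genes and for 35 of the 40 mitosis genes. The E2F site was searched on both strands as TTCCCGC, also in the spelling TTCGCGC, further in the spelling TTGCCGC and finally in the spelling TTGGCGC, with overlapping matches allowed. It was found in 27 of the 42 replication and G1/S genes (64.3%), in 7 of the 35 mitosis genes and in 10.9% of all 27025 genes with a window. The CHR element TTTGAA, on either strand, was found in 14.3%, 74.3% and 20.2% respectively, and CCAAT in 61.9%, 74.3% and 41.1%. E2F sites were present in 5 of 6 matched chromatin genes, 8 of 11 clamp, loader and RPA genes, 6 of 9 licensing genes, 4 of 5 polymerase and primase genes, 2 of 6 nucleotide genes, 1 of 3 control genes and 1 of 2 helicase activation genes. Below are the 180 bases just before the start, 5′ to 3′ on the gene's strand, with capitals marking E2F sites in the first 4 and CHR elements in the last 2. Mcm5 lies at chr8:75109329-75109508 on the plus strand, Mcm6 at chr1:128359706-128359885 on the minus strand, Cdc6 at chr11:98907971-98908150 and Hells at chr19:38930810-38930989 on the plus strand, and the mitosis genes Cdc20 at chr4:118437344-118437523 and Cdk1 at chr10:69352913-69353092 on the minus strand.
Mcm5: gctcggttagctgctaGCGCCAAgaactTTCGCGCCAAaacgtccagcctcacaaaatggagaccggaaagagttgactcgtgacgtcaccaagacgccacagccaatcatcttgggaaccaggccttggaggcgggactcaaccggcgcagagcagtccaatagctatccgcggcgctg
Mcm6: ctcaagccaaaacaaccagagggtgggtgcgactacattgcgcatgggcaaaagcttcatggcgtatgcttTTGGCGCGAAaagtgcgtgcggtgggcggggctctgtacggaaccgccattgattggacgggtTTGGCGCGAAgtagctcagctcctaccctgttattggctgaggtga
Cdc6: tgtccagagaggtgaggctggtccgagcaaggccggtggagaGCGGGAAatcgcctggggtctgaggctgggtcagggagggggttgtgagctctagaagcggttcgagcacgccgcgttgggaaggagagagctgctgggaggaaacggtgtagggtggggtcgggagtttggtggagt
Hells: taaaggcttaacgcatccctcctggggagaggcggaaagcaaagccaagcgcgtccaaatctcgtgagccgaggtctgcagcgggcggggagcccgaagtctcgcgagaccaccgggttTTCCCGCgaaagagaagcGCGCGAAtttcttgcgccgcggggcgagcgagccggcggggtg
Cdc20: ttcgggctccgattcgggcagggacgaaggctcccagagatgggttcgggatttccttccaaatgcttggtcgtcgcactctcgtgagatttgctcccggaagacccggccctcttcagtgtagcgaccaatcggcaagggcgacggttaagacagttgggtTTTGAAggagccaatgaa
Cdk1: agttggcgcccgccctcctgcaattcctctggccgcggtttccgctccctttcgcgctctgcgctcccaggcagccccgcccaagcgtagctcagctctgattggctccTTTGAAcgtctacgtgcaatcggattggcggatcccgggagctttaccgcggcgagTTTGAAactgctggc

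The Mcm6 stretch holds 2 blocks in which matches on the 2 strands overlap, Mcm5 holds 3 matches and Cdc6 holds 1. The Cdk1 stretch also holds 2 E2F matches, left in lower case. A match of letters is a description and was not tested for binding.

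In microglia many of the replication and G1/S genes were higher on days 1, 2 and 3 after injury than in controls, and none was called different on day 10. Against controls, 32 of the 51 passed the test as higher on day 1, 36 on day 2 and 24 on day 3, and none as lower, while 19, 15 and 27 did not pass (edgeR quasi-likelihood test, Benjamini-Hochberg adjusted p under 0.05 over 10801 genes). Of all genes tested, 23.9% were called higher on day 1, 17.6% on day 2 and 20.1% on day 3, beside 62.7%, 70.6% and 47.1% of the 51. The median log2 change of the 51 was 1.77, 2.18 and 1.55, and that of all genes tested was -0.01, -0.02 and -0.04. On day 10 no member was called (background 10.3% in either direction), 4 passed an unadjusted p of 0.05, DESeq2 also called 0, and the median change was 0.00. These comparisons share the 2 control libraries. The summed macrophage markers moved with the early rise in the same microglial sums, from 13.2 and 33.98 CPM in the controls to 873 to 1582 on day 1, 794 to 1303 on day 2 and 1134 to 2401 on day 3, and they stood at 746 to 1030 on day 10; their part in the result was not tested.

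Summed over the 51 genes, the level in counts per 1000000 UMIs of the microglia (CPM) was 677 in the mixed control library and 1769 in the resident one. On day 1 it was 3033, 2420 and 952, on day 2 it was 3586 in the resident and 4842 and 5115 in the mixed libraries. On day 3 it was 2668 and 3172 in the resident and 3290, 3522 and 1956 in the mixed libraries. On day 10 it was 913, 1088 and 737, and on day 21 it was 648. Microglia of infiltrating libraries were not used, and stood at 1011 CPM on day 10 (36 cells) and 5680 on day 21 (41 cells). In the latter, 2 cells of the dividing clusters 6, 7 and 10, described below, held 89.4% of the UMIs of the 51 genes. All day 2 and day 3 libraries lay above both controls, while the third mixed library of day 1 lay between them. The resident control was above the mixed control for 50 of the 51 genes, beside 54.7% of all genes tested. The third library of day 1 was the lowest of its day for 51 of 51 (41.6% of all genes) and below the resident control for 46 (70.9%). The other day 1 libraries were above both controls for 38 (24.9%).

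**Figure D1:**
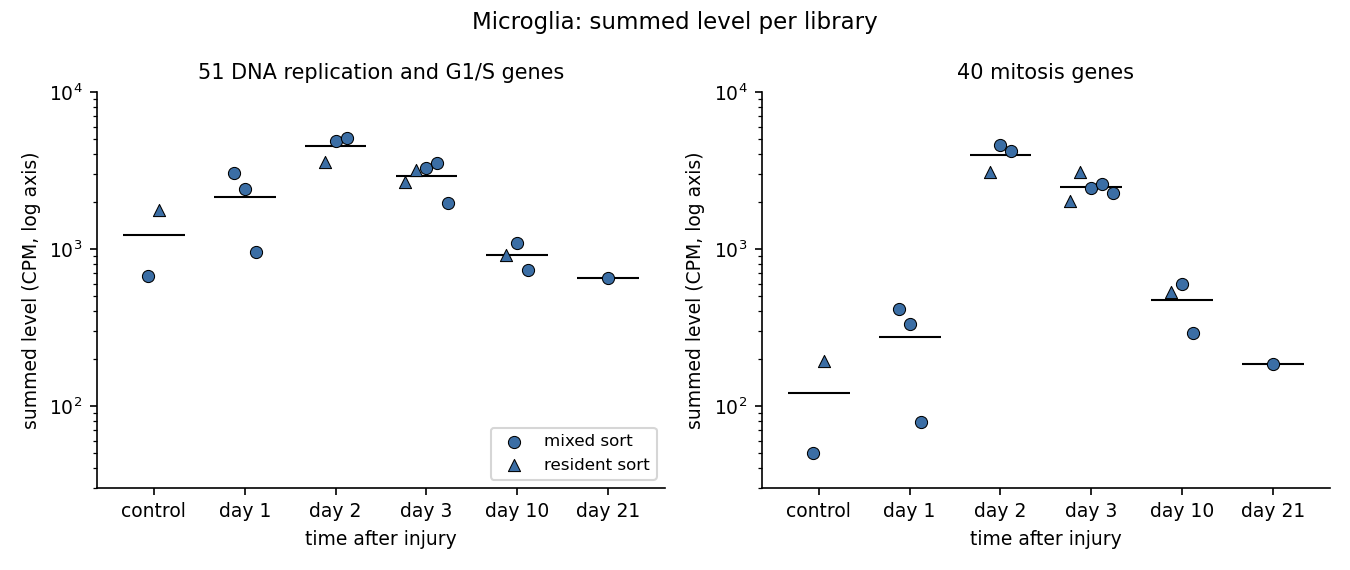
Summed level of the 51 replication and G1/S genes (left) and of the 40 mitosis genes (right) in the microglia of each library, in CPM on a log axis, by time after injury; circles are mixed libraries, triangles resident libraries and lines the mean per time. The 51 genes reach 952 to 3033 CPM on day 1 and 3586 to 5115 on day 2, while the mitosis genes stand at 79.1 to 415 on day 1 and 3076 to 4616 on day 2.

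The overlap of libraries limits the day 1 result. In every day 1 library 5 members, Pold2, Pcna, Rpa1, Ccne1 and Tipin, were higher than in both controls and Gins3 was lower, where 20% of all genes tested were higher without overlap and 55.6% lower. On day 2, 37 members were higher without overlap, against 19.1% of all genes, and on day 3, 14 were higher, against 11%, and Gins3 was again lower, against 42.3%. Without the mixed control library the calls fell to 6 on day 1, 6 on day 2 and 6 on day 3, and without the first library of day 1 they fell to 20. With total UMIs in place of scaling factors the median of all genes moved to -0.73 on day 1, -0.40 on day 2 and -0.62 on day 3, the members' median was 1.05, 1.80 and 0.94, and 11, 26 and 16 members were called. With the sequencing pool as a term, 7 members were called on day 2 and 0 on day 3, and day 1 could not be fitted. The shares of all genes called in these other fits are not given here. A loss of members and a general loss of calls cannot be told apart from the counts alone. Within 1 pool, the resident library of day 2 exceeded the resident control in 43 of the 51 genes, beside 34.7% of all genes tested. Of the day 10 libraries, the resident one (female) lay below the resident control (male) in 47 of the 51 (74.6% of all genes), and both mixed ones (male) exceeded the mixed control (female) in 35 (20.4%). In the pool of day 1, the mixed library of day 21 (female) lay below the first and second of day 1 (male) in 51 of the 51 (51.3% of all genes). The third library of day 1 was not in this count. Sort and pool are the same within each of these comparisons, but in those of days 10 and 21 time and sex cannot be told apart.

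Of the 10 origin licensing genes, 8 were called on day 1, 9 on day 2 and 2 on day 3. These are 80%, 90% and 20%, beside 23.9%, 17.6% and 20.1% of all genes, so the day 3 count was at the background. Mcm5, a subunit of the helicase ring, stood at 3.93 and 32.4 CPM in the mixed and resident controls, at 91.7, 81.5 and 22.3 on day 1, at 49.4 (resident), 89.7 and 88.8 on day 2, at 47.6 and 47.7 (resident), 57.7, 64.2 and 28.9 on day 3, at 8.87 (resident), 17.2 and 9.81 on day 10, and at 8.27 on day 21. All day 2 libraries exceeded both controls, and the lowest library of day 1 and of day 3 fell below the resident control. Its log2 change from control was 2.58 (SE 0.68, adjusted p = 0.005) on day 1, 2.67 (SE 0.70, adjusted p = 0.0097) on day 2 and 2.12 (SE 0.65, adjusted p = 0.017) on day 3, which turned to -1.06 with a pool term. Mcm6, another subunit of the ring, stood at 9.29 and 68.5 CPM in the controls, at 135, 108 and 32.5 on day 1, at 97.4, 110 and 81.4 on day 2, at 81.4, 69.8, 78.3, 96.2 and 32.7 on day 3, at 17.3, 31.5 and 16.3 on day 10, and at 16.8 on day 21. It was called on day 1 (1.94, SE 0.66, adjusted p = 0.022) and day 2 (1.92, SE 0.67, adjusted p = 0.039) and missed the threshold on day 3 (1.53, adjusted p = 0.061).

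Cdc6, which loads the helicase, was a low-count gene that passed in no microglial comparison. Its level was 0.179 and 9.71 CPM in the controls, 21.4, 15.7 and 0.232 on day 1, 11.7, 13.0 and 0 on day 2, 1.99, 6.26, 6.18, 6.75 and 2.51 on day 3, 1.77, 1.23 and 0.234 on day 10, and 0.871 on day 21. Of the day 1 libraries 1 lay between the controls and the others above both, and the log2 change was 2.20 (SE 1.12, adjusted p = 0.12). Mcm10, which helps to fire the loaded helicase, was the other licensing gene not called on day 1.

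Helicase activation follows licensing. Cdc45, which with the GINS complex turns the MCM ring into the working helicase, rose on day 1 by 3.21 log2 units (SE 0.86, adjusted p = 0.0056), from 0.357 and 4.85 CPM in the controls to 15.1, 14.8 and 3.02. The third day 1 library again lay below the resident control. Of the 4 genes of this step, the same number, 3 (75%), passed on each of days 1, 2 and 3. The shares of all genes called higher were 23.9%, 17.6% and 20.1%. Gins3, a GINS subunit, did not pass and had a day 1 change of -0.33.

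Of the 7 polymerase and primase genes, 2 were called on day 1, 3 on day 2 and 1 on day 3 (28.6%, 42.9% and 14.3%, beside 23.9%, 17.6% and 20.1% of all genes), with a median day 1 change of 0.78. Pold1, the catalytic subunit of polymerase delta, and Pold3, an accessory subunit, did not pass on any of these days. Pold3 stood at 29.5 and 44.2 CPM in the controls and at 37.4, 31.1 and 22.7 on day 1. Its day 1 values lay within or below the controls' range.

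The clamp and its partners gave 9 calls of 12 on day 1, 8 on day 2 and 6 on day 3. These are 75%, 66.7% and 50%, beside 23.9%, 17.6% and 20.1% of all genes. Pcna, the sliding clamp of the replicative polymerases, stood at 33.1 and 73.4 CPM in the controls, at 209, 145 and 107 on day 1, at 189, 234 and 281 on day 2, at 242, 167, 291, 262 and 60.4 on day 3, at 78.9, 68.8 and 59.3 on day 10, and at 70.1 on day 21. Every library of days 1 and 2 was above both controls, and 1 mixed library of day 3 was not. Pcna rose by 2.27 (SE 0.52, adjusted p = 0.0019), 2.49 (SE 0.52, adjusted p = 0.0024) and 2.54 (SE 0.50, adjusted p = 0.001) log2 units on days 1, 2 and 3, and the day 3 change was -0.20 with a pool term. Pclaf, a small protein that binds Pcna, stood at 0 and 14.6 CPM in the controls, at 65.0, 46.4 and 0.464 on day 1, at 283, 380 and 415 on day 2, at 139, 263, 249, 246 and 91.2 on day 3, at 15.5, 34.5 and 13.8 on day 10, and at 7.84 on day 21. It was called on day 1 (3.26, SE 1.22, adjusted p = 0.037), with the third library below the resident control, and its change was larger on day 2 (6.51, SE 1.35, adjusted p = 0.0022) and day 3 (5.69, SE 1.28, adjusted p = 0.0027). Rfc1, the large subunit of the clamp loader, and Rfc2, a small subunit, were called on none of these days.

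Nucleotide supply genes gave 5 calls of 6 (83.3%) on each of days 1, 2 and 3, beside 23.9%, 17.6% and 20.1% of all genes. Tk1 was missing on day 1 and Ung on days 2 and 3. Rrm2, the regulated subunit of ribonucleotide reductase, stood at 0.357 and 5.39 CPM in the controls, at 43.1, 30.5 and 2.55 on day 1, at 113, 165 and 148 on day 2, at 57.6, 107, 229, 189 and 40.9 on day 3, at 7.98, 16.5 and 6.54 on day 10, and at 5.22 on day 21. Its rise was the largest among the called genes on day 1 (4.03, SE 1.12, adjusted p = 0.0073), reaching 6.49 (SE 1.16, adjusted p = 0.00073) on day 2 and 6.27 (SE 1.13, adjusted p = 0.00052) on day 3, with no overlap with controls on those 2 days. Tyms, thymidylate synthase, stood at 20.01 and 43.7 CPM in the controls, at 61.3, 62.7 and 31.3 on day 1, at 108, 170 and 170 on day 2, at 75.4, 85.2, 94.8, 94.5 and 54.1 on day 3, at 21.7, 28.4 and 18.7 on day 10, and at 15.7 on day 21. Its changes were 1.40 (SE 0.40, adjusted p = 0.0087), 2.61 (SE 0.41, adjusted p = 0.00028) and 1.93 (SE 0.39, adjusted p = 0.0011).

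Ung, a DNA repair enzyme that removes uracil, stood at 0.536 and 16.7 CPM in the controls, at 45.7, 44.5 and 7.43 on day 1 and at 17.6, 26.6 and 7.40 on day 2. It was called on day 1 (2.83, SE 0.90, adjusted p = 0.017) and not on days 2 or 3. Tk1, thymidine kinase of the salvage route, stood at 0.893 and 11.9 CPM in the controls, at 15.1, 12.5 and 0.232 on day 1 and at 109, 160 and 141 on day 2. It did not pass on day 1 (1.38, adjusted p = 0.23) and rose by 5.21 (SE 0.98, adjusted p = 0.0011) on day 2 and 4.18 (SE 0.92, adjusted p = 0.0023) on day 3.

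Chromatin genes gave 2, 3 and 2 calls of 6 on days 1, 2 and 3. These are 33.3%, 50% and 33.3%, beside 23.9%, 17.6% and 20.1% of all genes. Dnmt1, which copies methylation onto new strands, stood at 15.5 and 47.5 CPM in the controls, at 41.3, 34.2 and 14.2 on day 1, at 58.2, 90.2 and 148 on day 2, at 47.6, 79.9, 12.4, 32.1 and 39.0 on day 3, at 16.9, 24.9 and 15.9 on day 10, and at 11.1 on day 21. The day 2 libraries alone lay wholly above the controls, and only that day was called (1.95, SE 0.60, adjusted p = 0.023). Hells, a chromatin remodeller of replicating heterochromatin whose promoter is printed above, did not pass in the injured microglia of any day against controls.

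Among the control genes, Ccne1 and Ccne2 encode cyclin E, the partner of the kinase that starts S phase. Ccne1 stood at 0.179 and 7.01 CPM in the controls, at 34.1, 23.1 and 7.19 on day 1, at 28.1, 41.1 and 51.8 on day 2, at 29.8, 23.1, 35.0, 18.6 and 13.8 on day 3, at 2.66, 6.74 and 3.04 on day 10, and at 1.96 on day 21. It rose by 3.63 (SE 0.86, adjusted p = 0.0024), 4.27 (SE 0.87, adjusted p = 0.002) and 3.68 (SE 0.84, adjusted p = 0.003) with no overlap, although the third day 1 library exceeded the resident control only narrowly. Ccne2 stood at 0.357 and 8.09 CPM in the controls, at 28.9, 17.4 and 1.16 on day 1, at 29.8, 44.1 and 74.0 on day 2, at 17.9, 33.7, 33.0, 30.4 and 10.1 on day 3, at 2.66, 10.6 and 1.87 on day 10, and at 2.18 on day 21. Its changes were 2.72 (SE 1.07, adjusted p = 0.046), 4.24 (SE 1.10, adjusted p = 0.0087) and 3.38 (SE 1.05, adjusted p = 0.019), and the day 1 libraries overlapped the controls. With a pool term its day 3 change was -0.70.

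E2f1, the activating factor of the E2F family, did not pass in microglia. It stood at 4.11 and 33.4 CPM in the controls, at 51.4, 28.5 and 8.82 on day 1, at 41.1, 52.1 and 29.6 on day 2, at 39.7, 24.6, 33.0, 15.2 and 22.0 on day 3, at 13.7, 14.7 and 6.77 on day 10, and at 10.0 on day 21. The resident control lay within the range of days 1, 2 and 3, and the log2 change was 1.48 (adjusted p = 0.091) on day 1 and 1.78 (adjusted p = 0.072) on day 2. Clspn, a mediator of the replication checkpoint, rose on day 2 by 4.52 (SE 1.01, adjusted p = 0.0036).

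Stmn1, stathmin, which destabilises microtubules and is not itself a replication factor, stood at 35.9 and 151 CPM in the controls, at 204, 111 and 38.3 on day 1, at 739, 867 and 1007 on day 2, at 606, 701, 668, 793 and 659 on day 3, at 192, 177 and 101 on day 10, and at 76.6 on day 21. Days 2 and 3 lay wholly above controls and day 1 overlapped them. The change was 1.01 (adjusted p = 0.13) on day 1, 3.63 (SE 0.60, adjusted p = 0.0004) on day 2 and 3.49 (SE 0.57, adjusted p = 0.00025) on day 3. Because Stmn1 is abundant, leaving it out lowered the mean summed level from 4514 to 3643 CPM on day 2 and from 2921 to 2236 on day 3, beside 2135 and 2017 on day 1.

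**Figure D2:**
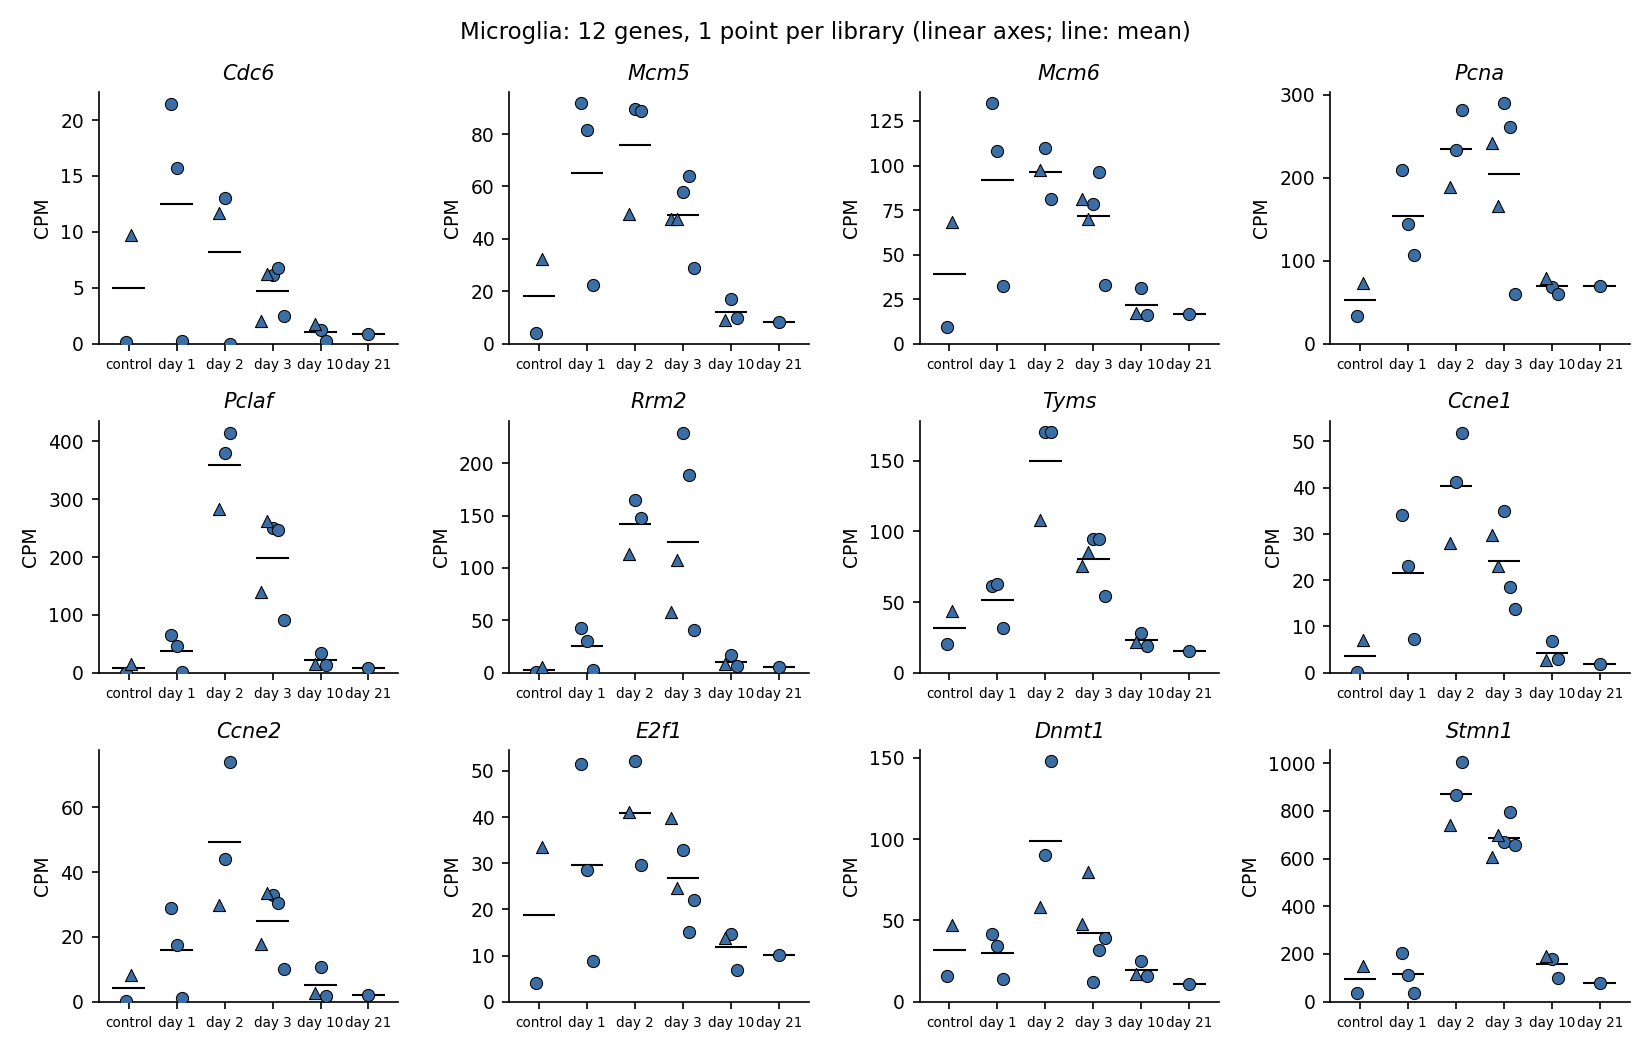
CPM of 12 of the genes in the microglia of each library by time after injury, on linear axes that start at 0; each point is a library and the line is the mean per time. Mcm5 spans 22.3 to 91.7 CPM on day 1 and 49.4 to 89.7 on day 2, whereas Stmn1 spans 38.3 to 204 on day 1 and 739 to 1007 on day 2.

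Members differed in when they were highest. The mean over libraries was highest on day 2 for 43 genes, on day 3 for 2, and on day 1 for 6, which were Cdc6, Mcm2, Mcm3, Pold1, Pold2 and Ung. Between day 1 and day 2 the test called 4 members as higher and none as lower (background 4.76% higher): Tk1 (3.82, SE 0.78, adjusted p = 0.0078), Pclaf (3.25, SE 0.97, adjusted p = 0.046), Stmn1 (2.62, SE 0.50, adjusted p = 0.0051) and Tyms (1.21, SE 0.36, adjusted p = 0.044). All day 2 libraries lay above all day 1 libraries for 18 of the 51, against 25.4% of all genes tested, and below them for none. Between day 1 and day 3 it called Tk1 (2.79, SE 0.69, adjusted p = 0.01), Stmn1 (2.47, SE 0.46, adjusted p = 0.0015) and Rrm2 (2.24, SE 0.69, adjusted p = 0.032), against a background of 8.62%. The median change of the 51 was 0.42 from day 1 to day 2 and -0.15 from day 1 to day 3, and that of the 10 licensing genes was -0.03 and -0.69. Mcm5 changed by 0.08 (SE 0.59) and Pcna by 0.22 (SE 0.44) from day 1 to day 2. Without cells of the dividing clusters 6, 7 and 10, described below, 0 members were called from day 1 to day 2, and among mixed libraries alone 0. The first of these fits also lost the second mixed library of day 2, left with 13 microglia, and without that library alone 2 were called.

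From day 3 to day 10, 14 of the 51 fell and none rose (background 3.92% lower), with a median change of -1.55. The calls included 4 nucleotide genes, 4 clamp and loader genes and 2 licensing genes. Rrm2 fell by 3.45 log2 units (SE 0.76, adjusted p = 0.015), Pclaf by 3.13 (SE 0.89, adjusted p = 0.044), Tk1 by 2.69 (SE 0.70, adjusted p = 0.033), and Uhrf1, which brings Dnmt1 to new DNA, by 2.74 (SE 0.80, adjusted p = 0.047). Rrm1, the large subunit of ribonucleotide reductase, fell by 2.29 (SE 0.43, adjusted p = 0.0061), Ccne1 by 2.38 (SE 0.64, adjusted p = 0.036), Stmn1 by 2.07 (SE 0.45, adjusted p = 0.013) and Mcm5 by 1.95 (SE 0.55, adjusted p = 0.043). Tyms fell by 1.78 (SE 0.33, adjusted p = 0.0052) and Pcna by 1.55 (SE 0.40, adjusted p = 0.032). All day 10 libraries lay below all day 3 libraries for 36 of the 51, against 8.38% of all genes tested. DESeq2 called 31 of the 51 as lower, and the edgeR count was 3 without clusters 6, 7 and 10, 0 without the second mixed library of day 10, 0 with a pool term and 0 among mixed libraries alone. With the pool term 8 of the genes named here turned to positive changes: Pclaf 0.59, Uhrf1 1.69, Tk1 0.069, Ccne1 1.49, Rrm1 0.19, Pcna 1.33, Tyms 0.12 and Mcm5 1.67.

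**Figure D3:**
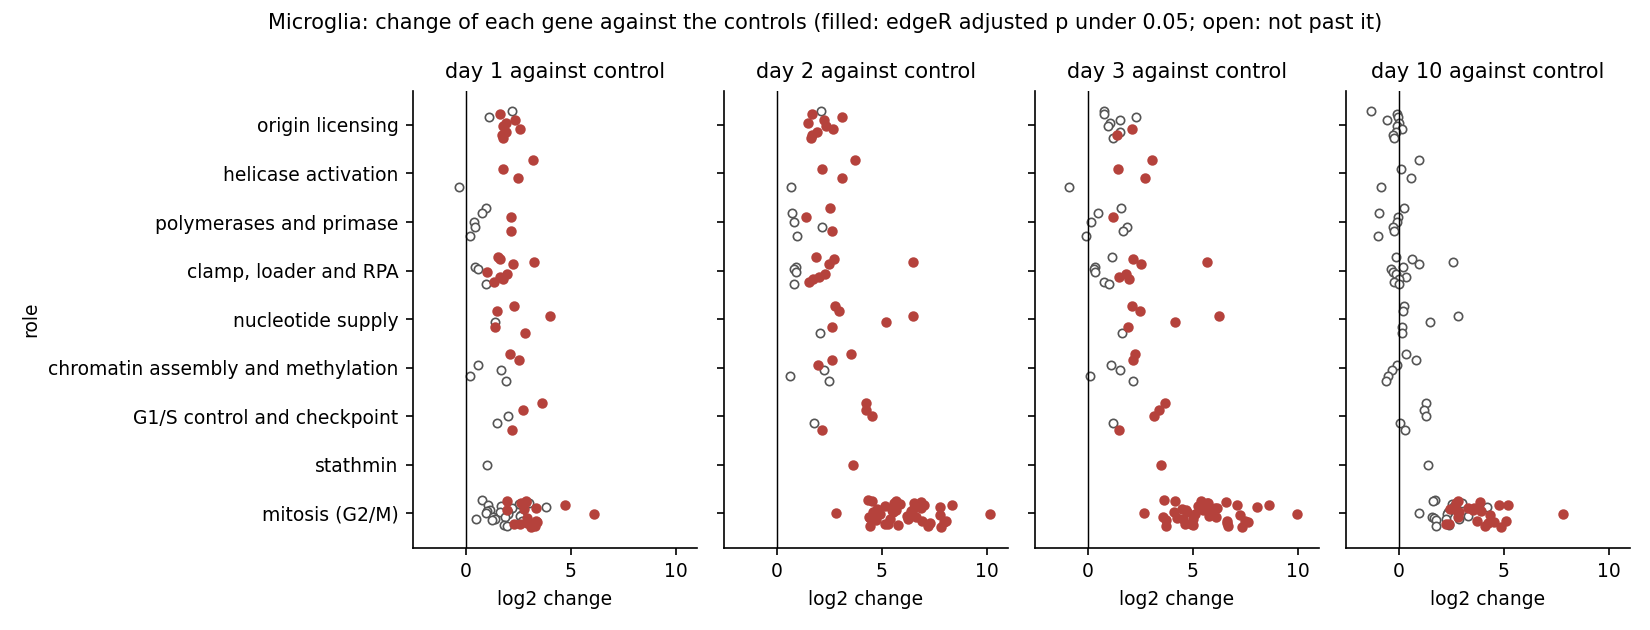
Fitted log2 change of each gene against control microglia on days 1, 2, 3 and 10, by role, with the mitosis list at the end; each point is a gene and filled points have an edgeR adjusted p under 0.05. On day 1, 32 of the 51 genes are filled, and on day 10 none is, while 23 of the 40 mitosis genes still are.

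The question of whether entry into S phase came before mitosis was addressed by setting the 51 genes beside the mitosis list. On day 1 the mitosis genes summed to 415, 333 and 79.1 CPM against 50.2 and 193 in the controls, and 17 of 40 were called higher. On day 2 they summed to 3076, 4616 and 4190 CPM and on day 3 to between 2031 and 3097, and 40 of 40 were called on each of those days against controls. From day 1 to day 2, 39 of the 40 rose with a median of 3.59, beside 4 of the 51 replication genes with a median of 0.42. The summed replication genes thus stood at 7.31, 7.26 and 12.03 times the summed mitosis genes on day 1, at 1.17, 1.05 and 1.22 times on day 2, at 0.858 to 1.37 times on day 3, at 1.72 to 2.52 times on day 10 and at 3.49 times on day 21. This ratio was 13.5 and 9.18 in the controls, so day 1 was not above controls in it, and the median change of the mitosis list on day 1, 2.43, was larger than that of the 51. On day 10, 23 of the 40 mitosis genes were still called higher than in controls, with a median of 2.85, while no replication gene was. The difference between the 2 lists was not tested, and day 1 shares its pool with no control.

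The lists were also counted within single cells. Each cell was thinned to 1500 UMIs, and a cell was called high for the replication and G1/S genes with 4 or more of their UMIs and high for mitosis with 3 or more. Replication-high cells made up 2.66% and 21.1% of control microglia, 47.2%, 36.3% and 8.44% on day 1, 52.0% and 73.5% on day 2, 24.9% to 48.9% on day 3, and 6.74% to 10.9% on day 10. Mitosis-high cells were at most 1.75% in the controls, 5.52%, 3.99% and 0.418% on day 1, 42.8% and 61.0% on day 2, 26.7% to 38.3% on day 3, and 4.17% to 6.03% on day 10. On day 1, cells high for replication genes alone were 42.1%, 32.3% and 8.19% and cells high for both lists were 5.06%, 3.99% and 0.251%. On day 2 the first class was 18.6% and 20.6% and the second 33.5% and 52.9%. In each of the 3 day 1 libraries most replication-high cells were thus below the limit for mitosis, and in both day 2 libraries most were above it. The controls had the day 1 pattern too: 38 cells of the mixed control were high for replication genes alone and 0 for both lists, and 88 and 8 of the resident one.

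These shares depend on depth and on the limits chosen. Neutrophil-like cells, which do not divide once mature, gave a mean of 1.90% ± 2.45 (SD, n = 4) replication-high and 2.31% mitosis-high cells, at a median of 2154 UMIs against 3062 in microglia. At full depth the replication-high share was 38.0% in controls, 56.0% on day 1, 83.5% on day 2 and 27.2% on day 10. Exactly 4 member UMIs were found in 868 cells and 3 in 1972, and 1478 of 13289 microglia had fewer than 1500 UMIs and were left out. The second mixed library of day 2, with 23 microglia, was too small for this measure. No doublet caller was run, so doublets among the cells high for both lists were not removed here.

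**Figure D4:**
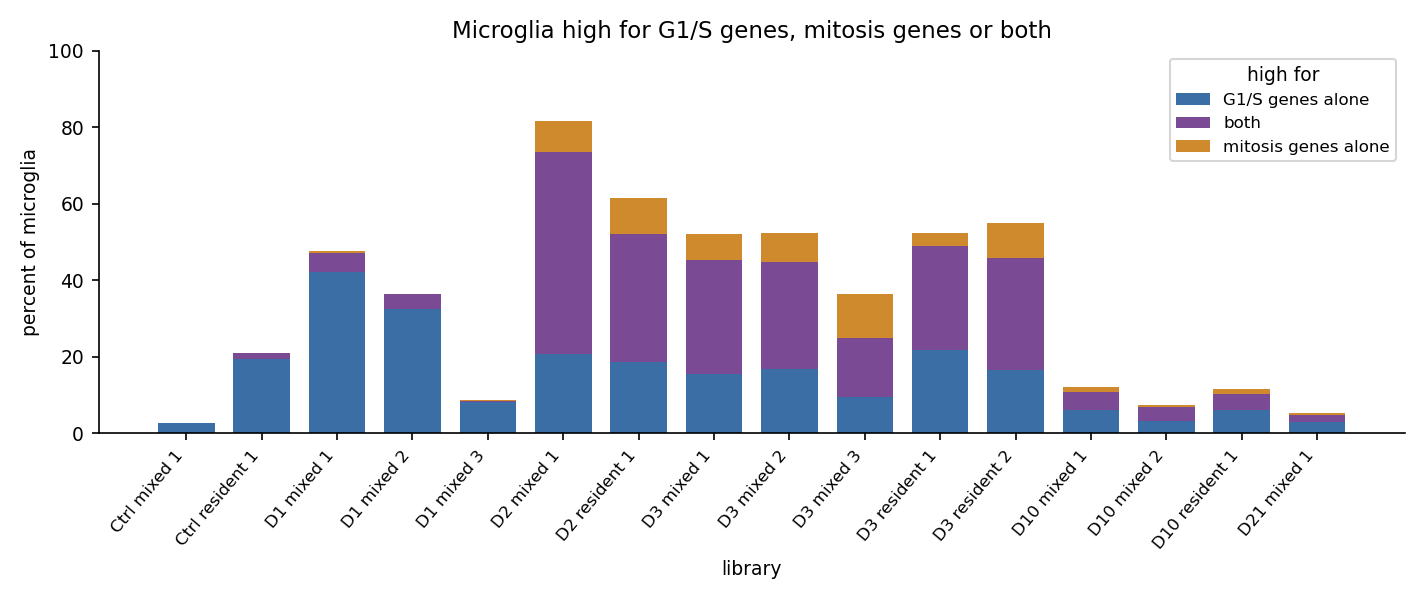
Percent of microglia in each library, thinned to 1500 UMIs, that are high for the 51 replication and G1/S genes alone, for both lists or for the mitosis list alone, as stacked bars from 0. Cells high for the replication genes alone reach 42.1% in a day 1 library, and cells high for both reach 52.9% in a day 2 library.

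Levels of the replication genes differed between the authors' clusters. The clusters come from the same cells, and the genes they were built on are not given in the sources used here, so levels are given as a description. Cluster 5, with 3330 microglia of which 69.5% came from day 1, held 3094 CPM of the 51 genes and 559 of the mitosis genes. Cluster 6, with 1515 microglia mostly of days 2 and 3, held 4726 and 7219 CPM, at a median of 2581 UMIs per cell against 3683 in cluster 5. Over the 12 libraries with at least 20 cells of cluster 5, its levels ran from 1043 to 6339 and from 80.1 to 1698 CPM. Over the 10 such libraries of cluster 6 they ran from 3615 to 5902 and from 6228 to 9228. The clusters thus overlapped in the 51 genes and not in the mitosis genes. In cluster 5, 36.7% of cells were high for replication genes alone and 9.06% for both lists, against 2.02% and 77.0% in cluster 6. Of the 51 genes, 21 (41.2%) were higher in cluster 5 than in cluster 6, about the share of all genes tested in microglia (41.04%). They were 9 of the 10 licensing genes, 4 of the 5 control genes, 3 of the 6 chromatin genes, 3 of the 12 clamp, loader and RPA genes, 1 of the 6 nucleotide genes, 1 of the 7 polymerase and primase genes and none of the 4 helicase activation genes. These counts pool cells over libraries, and the split by role was not tested.

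Ung stood at 40.3 CPM in cluster 5, 4.49 in cluster 6 and 4.56 in cluster 1, which holds the control cells alone. Cdc6 stood at 18.7 CPM in cluster 5 and 5.61 in cluster 6, Mcm2 at 61.6 and 27.3, and Hells at 60.0 and 21.5. In the opposite direction, Stmn1 stood at 288 and 1305 CPM, Pclaf at 104 and 479, and Tk1 at 38.3 and 180. Cluster 7, with 67 microglia, and cluster 10, with 182 macrophages, resembled cluster 6 in holding more mitosis than replication UMIs, at 6408 against 10197 CPM and 5881 against 6894. Their median depths, 13526 and 14006 UMIs per cell, were well above that of cluster 6. Each reached 20 cells in only 1 library, where cluster 10 held 4509 and 5385 CPM. Of the cells of cluster 10, 75.8% came from day 3 and 14.3% from day 10.

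Clusters 6, 7 and 10 held 0.3% to 1.5% of day 1 microglia and 1.51% to 3.69% of the UMIs of the 51 genes there. On day 2 they held 34.3% to 48.1% of the microglia and 47.9% to 64.5% of those UMIs. With these cells left out, 30 of the 51 genes were called against controls on day 1, 33 on day 2 and 14 on day 3. All cells together had given 30 of these calls on day 1, 30 on day 2 and 14 on day 3. The second mixed library of day 2, left with 13 microglia, dropped out of this fit, and without it alone 32 were called on day 2. The shares of all genes called in these fits are not given here.

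In macrophages, including monocytes, the 51 genes summed to between 498 and 1768 CPM over the first 3 days and to 4492 and 4565 in 2 of 4 libraries on day 10. Their level was 498 and 533 CPM in the infiltrating and 695 and 538 in the mixed libraries of day 1, 508 (infiltrating), 1768 and 708 on day 2, and 869 (infiltrating) and 830 on day 3. On day 10 it was 667 and 1227 in the infiltrating and 4492 and 4565 in the mixed libraries, and on day 21 it was 3825 (infiltrating) and 499 (mixed). The first mixed library of day 2, at 1768, lay above both infiltrating libraries of day 10 and was the highest of its day for 45 of the 51 genes (38.3% of all genes tested). In it 1 of 69 macrophages was of clusters 6, 7 and 10 and held 61.5% of the UMIs of the 51 genes. The mixed libraries of day 10 exceeded the infiltrating ones for 51 of 51 genes (37.3% of all genes), and these 2 sums rest on 53 and 68 cells. Clusters 6, 7 and 10 held 15.1% and 17.6% of those cells and 94.5% and 94.4% of the UMIs of the 51 genes. Without these clusters the 4 libraries of day 10 stood at 529 to 601 CPM. Markers of granulocyte-monocyte progenitors, blood cell precursors of the bone marrow, were high in the same libraries: all 6 of the list were detected in both mixed libraries of day 10, summing to 2532 and 6244 CPM, and in the infiltrating library of day 21, at 2572. They summed to 14.4 and 29.8 CPM in the infiltrating libraries of day 10, to 71.7 in the mixed library of day 21 and to at most 54.5 in any library of days 1 to 3. Without clusters 6, 7 and 10 they summed to 55.4 and 211 CPM in the mixed libraries of day 10 and to 44.8 in the infiltrating one of day 21.

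**Figure D5:**
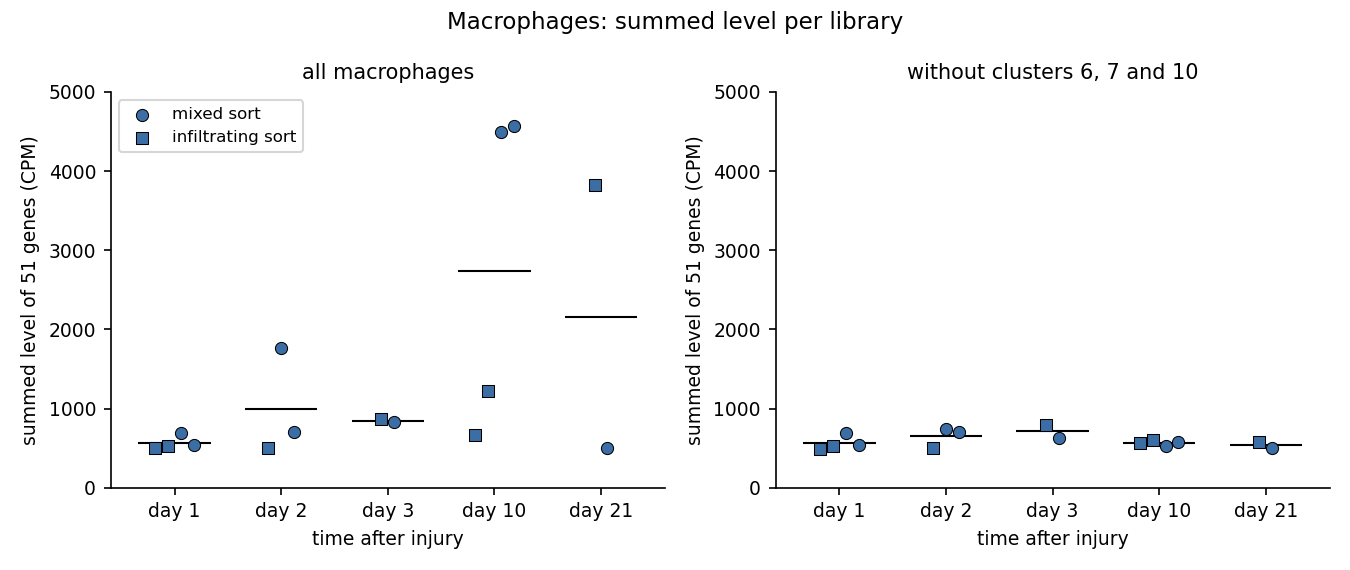
Summed level of the 51 genes in the macrophages of each library in CPM, for all macrophages and without cells of clusters 6, 7 and 10, by time after injury; circles are mixed and squares infiltrating libraries. The mixed libraries of day 10 fall from 4492 and 4565 CPM to the range of 529 to 601 when these clusters are left out.

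From day 1 to day 10, 28 of 49 tested genes rose in macrophages (background 7.31%), with a median of 2.23. The progenitor markers moved with this, from a mean of 27.2 CPM on day 1 to 2205 on day 10. No member was called from day 1 to day 2 or to day 3 in edgeR (background 0%; 3 members passed an unadjusted p of 0.05 each time; DESeq2 called 0), nor from day 3 to day 10 (background 0.676% in either direction; 24 at an unadjusted p of 0.05; DESeq2 called 8). Among mixed libraries alone, with 1 library on day 3, 33 of 47 tested members were called higher from day 3 to day 10 (background 6.96%) and 7 from day 1 to day 3 (background 6.69%). In that fit day 3 had no spread of its own, so its tests used the spread of the other days. The 28 calls from day 1 to day 10 covered 8 of 9 tested licensing genes, 8 of 12 clamp, loader and RPA genes and none of 4 helicase activation genes. Mcm5 stood at 2.51, 1.94, 4.24 and 2.43 CPM on day 1, at 2.89, 40.6 and 2.43 on day 2, at 5.08 and 5.71 on day 3, at 5.20, 18.2, 112 and 103 on day 10, and at 64.7 and 11.9 on day 21. All 4 day 10 libraries lay above day 1, and the change was 4.25 (SE 1.13, adjusted p = 0.024). Pcna stood at 59.8, 93.8, 76.3 and 92.4 CPM on day 1 and at 57.7, 72.7, 120 and 126 on day 10, overlapping, with a change of 0.22 (SE 0.23, adjusted p = 0.56).

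Pclaf gave the largest macrophage change among the called genes, 6.67 (SE 1.92, adjusted p = 0.034), from 1.39, 0.375, 8.47 and 0 CPM on day 1 to 11.2, 57.9, 324 and 454 on day 10. Rrm2 rose by 6.12 (SE 1.89, adjusted p = 0.044), Tk1 by 5.95 (SE 1.81, adjusted p = 0.042), Clspn by 5.41 (SE 1.38, adjusted p = 0.02) and Stmn1 by 5.06 (SE 1.37, adjusted p = 0.026). Hells rose by 4.85 (SE 0.95, adjusted p = 0.0066) from at most 1.87 CPM on day 1 to 3.96, 13.2, 109 and 102, with the mixed libraries far above the infiltrating ones. Cdc6, uncalled in microglia, rose by 4.10 (SE 1.29, adjusted p = 0.047), Ccne1 by 3.61 (SE 1.14, adjusted p = 0.049) and Mcm6 by 2.55 (SE 0.65, adjusted p = 0.02). The count of 28 fell to 3 without clusters 6, 7 and 10, to 2 without the second infiltrating library of day 1, to 5 and 4 without the first or second mixed library of day 10, to 12 and 10 without the first or the third mixed library of day 1, to 12 with at least 50 cells per sum and to 15 with total UMIs in place of scaling factors.

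Macrophages were compared with microglia of the same 8 mixed libraries. On days 1 to 3, 34 of the 51 genes were lower in macrophages and none was higher (background 10.8% lower), with a median of -1.75. The largest differences were in Tk1 (-3.46, SE 0.72, adjusted p = 0.0019), Stmn1 (-3.42, SE 0.61, adjusted p = 0.00053), Rrm2 (-3.35, SE 0.75, adjusted p = 0.0036), Pclaf (-3.13, SE 0.84, adjusted p = 0.013), Mcm10 (-2.98, SE 0.83, adjusted p = 0.015) and Ccne2 (-2.89, SE 0.73, adjusted p = 0.0079). All 6 nucleotide genes and 8 of 10 licensing genes were lower, Mcm5 by -2.78 (SE 0.49, adjusted p = 0.00048), Tyms by -2.72 (SE 0.50, adjusted p = 0.00067), Ccne1 by -2.32 (SE 0.51, adjusted p = 0.003), Mcm6 by -1.65 (SE 0.43, adjusted p = 0.0098) and Pcna by -1.18 (SE 0.26, adjusted p = 0.0034). Dnmt1 differed by 0.06 (SE 0.37, adjusted p = 0.94). The count was 32 without clusters 6, 7 and 10, a fit that also lost the second mixed library of day 2, 26 without that library alone and 7 where each sum had at least 50 cells.

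For days 10 and 21 fitted together the direction was the opposite, with 29 of 51 genes higher in macrophages and none lower (background 7.17% higher). Their median was 1.72. Summed over the 51 genes, macrophages exceeded microglia in the mixed libraries of day 10 (4492 against 1088 and 4565 against 737 CPM). In the mixed library of day 21 they were lower (499 against 648 CPM). Cdc6 was higher by 4.79 (SE 0.82, adjusted p = 0.00079), Dut, which keeps uracil out of DNA, by 3.27 (SE 0.77, adjusted p = 0.0082), Pclaf by 3.12 (SE 0.99, adjusted p = 0.042), Hells by 2.97 (SE 0.67, adjusted p = 0.0059), Chaf1a, a histone chaperone subunit, by 2.77 (SE 0.75, adjusted p = 0.019) and Rrm2 by 2.76 (SE 0.86, adjusted p = 0.038). Mcm5 was higher by 2.43 (SE 0.57, adjusted p = 0.0075), Ccne1 by 2.22 (SE 0.61, adjusted p = 0.02), Dnmt1 by 1.98 (SE 0.50, adjusted p = 0.012) and Mcm6 by 1.72 (SE 0.53, adjusted p = 0.036). In the 3 libraries the progenitor markers summed to 2532, 6244 and 71.7 CPM in macrophages and to 293, 346 and 268 in microglia. Control microglia held 406 to 429 CPM of the same list, and 1 of its 6 genes passed the marker limits in microglia. The part of these markers in the result was not tested. This rests on 3 libraries and few macrophages: the count was 0 without clusters 6, 7 and 10, 0 without the first and 1 without the second mixed library of day 10, 4 with libraries of every sort, and 17 with DESeq2. Without clusters 6, 7 and 10 the difference turned negative for Dut (-0.36), Pclaf (-1.49), Hells (-1.70), Chaf1a (-6.40), Rrm2 (-6.26), Ccne1 (-1.41) and Mcm6 (-0.93). The change of the difference between the 2 periods was not tested.

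Dendritic-like cells held 562 to 3452 CPM of the 51 genes, with a median of 821 over 9 libraries, and the highest, the third mixed library of day 3, had 587 CPM of the mitosis genes. Against macrophages of the same 9 libraries, 21 of the 51 were higher and 2 lower (background 19.5% and 21%). Higher were Mcm10 (2.01, SE 0.68, adjusted p = 0.029), Dut (1.90, SE 0.33, adjusted p = 0.00028), Hells (1.76, SE 0.41, adjusted p = 0.0029), Ccne1 (1.66, SE 0.41, adjusted p = 0.0043), Mcm5 (1.63, SE 0.42, adjusted p = 0.006), Chaf1a (1.52, SE 0.37, adjusted p = 0.0042) and Mcm6 (0.94, SE 0.24, adjusted p = 0.0059). Lower were Cdt1, which loads the helicase with Cdc6 (-1.02, adjusted p = 0.0018), and Dnmt1 (-0.81, SE 0.20, adjusted p = 0.0044). Licensing genes gave 6 of the 21 higher calls, while of the mitosis list 13 of 39 tested genes were lower and none higher. Leaving out clusters 6, 7 and 10 raised the count from 23 to 37, and leaving out the infiltrating library of day 3 lowered it to 14.

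Other genes of the pathway were counted in the same way. Of 37 further replication and S phase genes, 36 were tested in microglia and 12 (33.3%) rose on day 1, 18 (50%) on day 2, 11 (30.6%) on day 3 and 0 on day 10, beside the 23.9%, 17.6% and 20.1% of all genes on the first 3 of these days. Among them, on day 1, were the nuclease Exo1 (2.78) and the histone chaperone Nasp (2.30). Of 25 G1 cyclins, their kinases and inhibitors, 24 were tested on day 1, when 4 rose (16.7%, beside 23.9% of all genes) and 4 fell (16.7%, beside 22.7%). Ccnd2, a D-type cyclin that acts before cyclin E, rose by 5.22 (SE 0.58, adjusted p = 8.2e-06), and the inhibitors Cdkn1c and Cdkn1b fell by 3.02 and 2.62. From day 1 to day 2, Ccnd2 fell by 2.43, while E2f7 and E2f8, repressors of late S phase, rose by 4.01 and 3.65. The mitosis genes with the largest called changes were Hmmr (6.09), Ccnb1 (4.72) and Plk1 (3.39) on day 1 and Ccnb2 (5.94), Mki67 (5.74) and Cenpf (5.37) from day 1 to day 2.

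Across the 17 microglial sums, the genes outside both lists whose log2 CPM followed the summed 51 most closely included Dnajc9 (Pearson r = 0.98), Cenph (0.97), Gmnn (0.96) and Ndc1 (0.95). Among the 51, Gins2, Tyms and Rrm1 followed the sum of the others most closely (0.98, 0.98 and 0.97) and Rfc1, Gins3, Pold1 and Pold3 least (0.38, 0.39, 0.40 and 0.43). These values describe sums that share libraries and depth and carry no p.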

How the data were processed

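UMI counts per gene and cell were deposited by the authors as 1 matrix per library, with a table of the authors' cell type and cluster codes; Cell Ranger 3.1.0 and GRCm38 (mm10) are named in the submitters' processing notes. Deposited counts were summed per library and cell type where at least 20 cells were present. Sums were fitted with edgeR 4.0.16 (R 4.3.3; TMM scaling, filterByExpr, time and sex as terms, or the library as a block for 2 cell types of 1 library) with the quasi-likelihood test and Benjamini-Hochberg adjustment over all genes tested. The microglial fit used resident and mixed libraries (17 sums), the macrophage fit infiltrating and mixed libraries (15 sums), and SE is the absolute log2 change over the square root of F. CPM values are per 1000000 UMIs of a sum, without scaling factors. DESeq2 1.42.0 was an alternative. Nothing says that libraries came from separate litters or days, so p-values measure the spread between these pools of mice. In bulk sums, fewer dividing cells and less RNA per cell cannot be told apart.

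Members and lists were chosen with earlier results of these data known. Values in every library are given for Mcm5, Mcm6, Pcna, Tyms, Rrm2, Pclaf, Stmn1, Cdc6, Ccne1, Ccne2, E2f1 and Dnmt1 in microglia, statistics for these and for the 6 largest changes called per comparison, and other lists by their 3 largest; Ung, Tk1, Cdc45, Pold3 and the genes of the cluster comparison were named after their values were seen. Of the genes these rules choose outside the 51, 2 are not reported here. Cells were thinned to 1500 UMIs for shares. The scripts were tested on simulated counts. Sex-linked and reporter genes were left out.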

Additional observations from a re-analysis of the deposited data

Results flagged for a closer look

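Of 42 groups of 4 or 5 libraries checked for a library far from the others, 3 were marked, and chance marks about 1 in 20 such groups. All 3 were macrophages of day 1. Ccne2 stood at 0.264 CPM in the first infiltrating library and at 0 in the others. Dnmt1 stood at 4.87 CPM in the third mixed library against a median of 54.2 in the others. Pclaf stood at 8.47 CPM in the first mixed library against a median of 0.375. The mixed libraries concerned hold 28 and 54 macrophages, which limits the precision of these values.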

How the results depend on the processing

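Counts of called members are given in the order of the comparisons. DESeq2 gave 31 for day 10 against day 3 in microglia, 8 for day 10 against day 3 in macrophages and 17 for macrophages against microglia on days 10 and 21. Without an expression filter the counts were 2 (day 10 against control), 8 (day 2 against day 1), 5 (day 3 against day 1) and 31 (day 10 against day 3) in microglia and 3 for day 10 against day 3 in macrophages. With at least 50 cells they were 2 for day 2 against day 1 in microglia, 12 for day 10 against day 1 in macrophages and 7 between the types on days 1 to 3. Without clusters 6, 7 and 10, which also left the second mixed library of day 2 too few microglia to enter, they were 14, 0 and 3 for day 3 against control, day 2 against day 1 and day 10 against day 3 in microglia, 3 for day 10 against day 1 in macrophages, 0 between the types on days 10 and 21 and 37 for dendritic-like cells. With a pool term they were 7, 0 and 2 for days 2, 3 and 10 against control and 0 for day 10 against day 3. Among mixed libraries alone they were 6 and 1 for days 1 and 3 against control, 0, 1 and 0 for day 2 against day 1, day 3 against day 1 and day 10 against day 3, and in macrophages 7 for day 3 against day 1 and 33 for day 10 against day 3. With the library of conflicting labels, 2 were called in macrophages for day 10 against day 3, and libraries of every sort gave 4 between the types on days 10 and 21. Total UMIs without scaling factors, chosen after seeing the data, gave 11 and 3 for days 1 and 10 against control and 7 for day 2 against day 1 in microglia, and 15 for day 10 against day 1 in macrophages. Leaving out the sex term, also added later, kept every count within 1.5 times. The cause of these shifts was not tested.

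The replicate numbers of the labels paired no samples by the deviations (correlations of -0.19 to 0.11). With the replicate block the counts were 39 and 1 for days 3 and 10 against control, 2, 6 and 34 for day 2 against day 1, day 3 against day 1 and day 10 against day 3 in microglia, and 9 for day 10 against day 1 in macrophages.

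Leaving out 1 library at a time gave 6 to 40 for day 1, 6 to 42 for day 2, 6 to 34 for day 3 and 0 to 3 for day 10 against control. It gave 2 to 6 for day 2 against day 1, 2 to 6 for day 3 against day 1 and 0 to 29 for day 10 against day 3. In macrophages it gave 2 to 33 for day 10 against day 1, between the types 26 to 40 early and 0 to 42 late, and 14 to 28 for dendritic-like cells.

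Directions turned for single genes in 2 settings. Without clusters 6, 7 and 10, macrophages against microglia on days 10 and 21 gave Dut -0.36, Pclaf -1.49, Hells -1.70, Chaf1a -6.40, Rrm2 -6.26, Mcm6 -0.93, Ccne2 -5.90 and Ccne1 -1.41. With a pool term, day 3 against control gave Ccne2 -0.70, Pcna -0.20 and Mcm5 -1.06, and day 10 against day 3 gave Pclaf 0.59, Uhrf1 1.69, Tk1 0.069, Ccne1 1.49, Rrm1 0.19, Pcna 1.33, Tyms 0.12 and Mcm5 1.67.

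With 2 further UMIs required, replication-high cells were 28.4% on day 3 and 5.63% on day 10 in microglia and 1.48% on day 3 in macrophages, and mitosis-high microglia 24.6% on day 3. Thinned to 3000 UMIs with doubled limits, replication-high cells were 6.63% on day 10 in microglia and 0.102% and 2.88% on days 1 and 3 in macrophages. Without Stmn1 the mean summed level was 3643, 2236 and 572 CPM in microglia on days 2, 3 and 21 and 791 in macrophages on day 3. With 2 controls and sums of 23 to 69 cells in places, depth and library number limit these values, those of low-count genes among them.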
